A study of Mus musculus with 12 samples.

Results

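The genes described are 54 genes of the actin cytoskeleton, taken by symbol from the table of raw counts of mouse kidneys after ischemia and reperfusion. All 54 were found among 23420 rows (1 of them, Diaph1, under its older symbol Diap1), of which 14213 rows had at least 1 count in some kidney, and all 54 passed the filter on low counts that left 11664 genes for the test. The list holds 3 actins, 9 subunits of the Arp2/3 complex, 7 genes of monomer binding and filament turnover, 6 of filament capping and severing, 4 tropomyosins, 8 myosin genes, the 3 membrane linkers ezrin, moesin and radixin, 8 bundling and side-binding genes, 2 elongation genes and 4 small GTPases.

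Messenger RNA of 12 kidneys of male C57BL/6J mice aged 8 to 15 weeks was sequenced. The 4 control kidneys came from nephrectomy and serve as normal kidneys in the study's methods, although their labels carry the same protocol of 20 min of ischemia as the other kidneys, and whether they came from the mice whose other kidney was clamped was not stated. The renal pedicle of the 8 other kidneys was clamped for 20 min by their labels, and they were collected after 24 h of reperfusion. The study's sources differ on the controls, which its methods give as nephrectomy kidneys and its results also call sham surgery, so ischemia and the surgery around it cannot be told apart. Ischemia set A holds the 4 kidneys whose titles name anaesthesia and whose group field names conscious mice, and ischemia set B the 4 kidneys with the reverse contradiction, so that no direction can be assigned to anaesthesia (ketamine and xylazine). By the methods, conscious mice too were briefly sedated with isoflurane to close and open the clamp, and all mice received ketamine and xylazine at tissue collection.

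Actin is a small protein that switches between single subunits (monomers) and filaments. Profilin and the thymosins bind monomers, the Arp2/3 complex and the formins start new filaments, capping proteins stop their growth, cofilin and its partners take them apart, tropomyosins and calponins lie along them, and myosins pull on them. In the proximal tubule of the kidney, actin bundles fill the microvilli of the brush border, and loss of that arrangement is a classical feature of ischemic tubular injury. Ezrin, moesin and radixin tie filaments to the plasma membrane.

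The deposited values are counts of reads per gene, and they summed to between 15367342 and 44793350 per kidney. Levels are given as CPM, the count of a gene scaled by that sum, and fold changes come from a model of all 12 kidneys (edgeR's quasi-likelihood test), with p-values adjusted over the 11664 genes (Benjamini-Hochberg) and a threshold of 0.05. A count of 3, taken as the floor, corresponds to between 0.067 and 0.195 CPM. The intervals of shares and the floors cover counting error only, and the reads carry no molecular identifiers. The intervals of log2 differences come from the edgeR fit, and they and the p-values rest on the spread between these kidneys. The markers of the proximal tubule, among them the phosphate transporter Slc34a1, were present in the control kidneys at a summed level of 6294 to 7106 CPM, which fits their labelled tissue, and were lower in the A set (672 to 1285 CPM) and set B (389 to 1306 CPM). In bulk tissue, fewer cells of a type and less RNA per cell cannot be told apart.

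The 54 genes together took up a larger share of all counts after ischemia. They held 3.19%, 3.19%, 3.12% and 2.96% of the counts in the 4 control kidneys, a mean of 3.11% ± 0.11 (SD, n = 4). In set A the shares were 7.92%, 6.74%, 7.65% and 5.91%, a mean of 7.05% ± 0.916 (SD, n = 4) and 2.27 times the control mean. In set B they were 6.63%, 6.85%, 6.88% and 5.91%, a mean of 6.57% ± 0.452 (SD, n = 4) and 2.11 times the control mean. Every ischemic kidney lay above every control kidney, and the 95% Wilson interval of each share reached at most 0.0123 percentage points to either side. Actb alone made up 46.6% of the 54 genes' counts in the controls, 47.7% in the A set and 46.6% in the B set. Without Actb and Actg1, the shares were 1.58%, 3.41% and 3.29%.

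**Figure D1:**
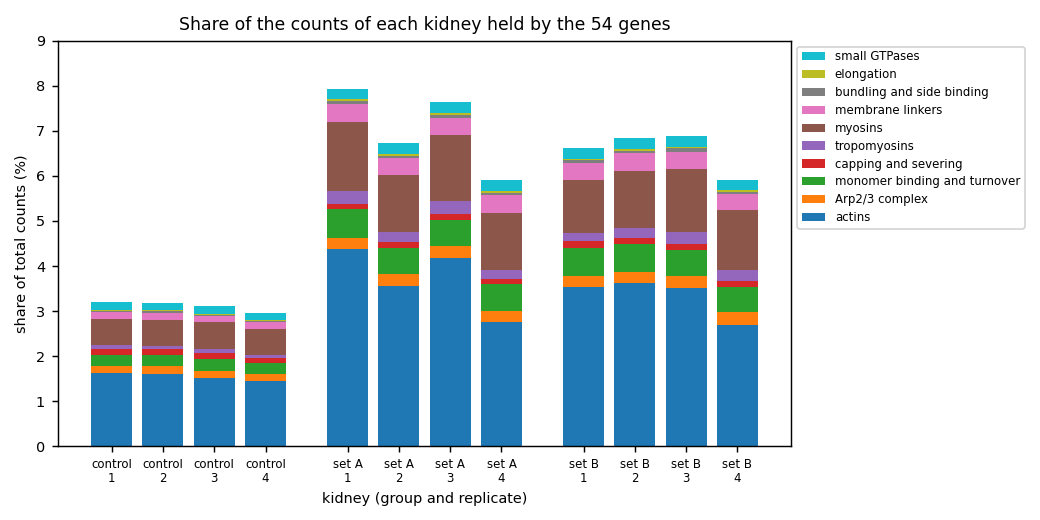
Share of all counts (%, vertical axis) held by the 54 genes in each of the 12 kidneys, stacked by the role of the genes. The control bars reach 2.96 to 3.19%, and the bars of the ischemic kidneys reach 5.91 to 7.92%, with actins and myosins as the tallest segments.

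The growth of the share was uneven across the roles. The tropomyosins rose from 0.0795% of all counts in the controls to 0.253% in the A set and 0.238% in the B set, 3.18 and 2.99 times the control mean. The membrane linkers held 2.73 and 2.65 times their control share, the actins 2.40 and 2.16 times, the monomer-binding and turnover genes 2.35 and 2.37 times and the myosins 2.35 and 2.20 times. The elongation genes held 2.40 and 2.59 times and the bundling and side-binding genes 1.87 and 1.83 times. The Arp2/3 complex stood at 1.63 and 1.62 times and the small GTPases at 1.42 and 1.39 times. The capping and severing genes kept nearly the same share, 0.124% ± 0.00779 in the controls, 0.125% ± 0.0146 in the A set and 0.127% ± 0.0118 in the B set (SD, n = 4), with Capg, Capza1 and Capzb higher and Vil1 lower. No test was made of these sums.

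Gene by gene, 37 of the 54 (68.5%) were higher in the A set than in the controls and 3 (5.56%) were lower, where the same test called 10.5% of all genes tested higher and 11.7% lower. In set B, 37 were higher (68.5%) and 4 lower (7.41%), against 10.9% and 11.9% of all genes tested. The 54 genes were chosen with earlier results of these data known, so these shares describe the list and are no test of it. In both sets, 36 of the 54 (66.7%) were higher and Vil1, Myh14 and Rdx were lower. Over all genes tested, the shares called in both sets were not counted. They cannot exceed the 10.5% higher and 11.7% lower of the A set. The median log2 fold change of the 54 genes was 0.81 in the A set and 0.72 in the B set, and that of all genes tested was -0.02 in each. Both comparisons use the same 4 control kidneys. In 33 of the 54 genes (61.1%) every one of the 8 ischemic kidneys lay above every control kidney, which held for 8.86% of all genes tested, and in 2 genes, Rdx and Myh14, all 8 lay below (3.70%, against 11.3% of all genes tested).

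**Figure D2:**
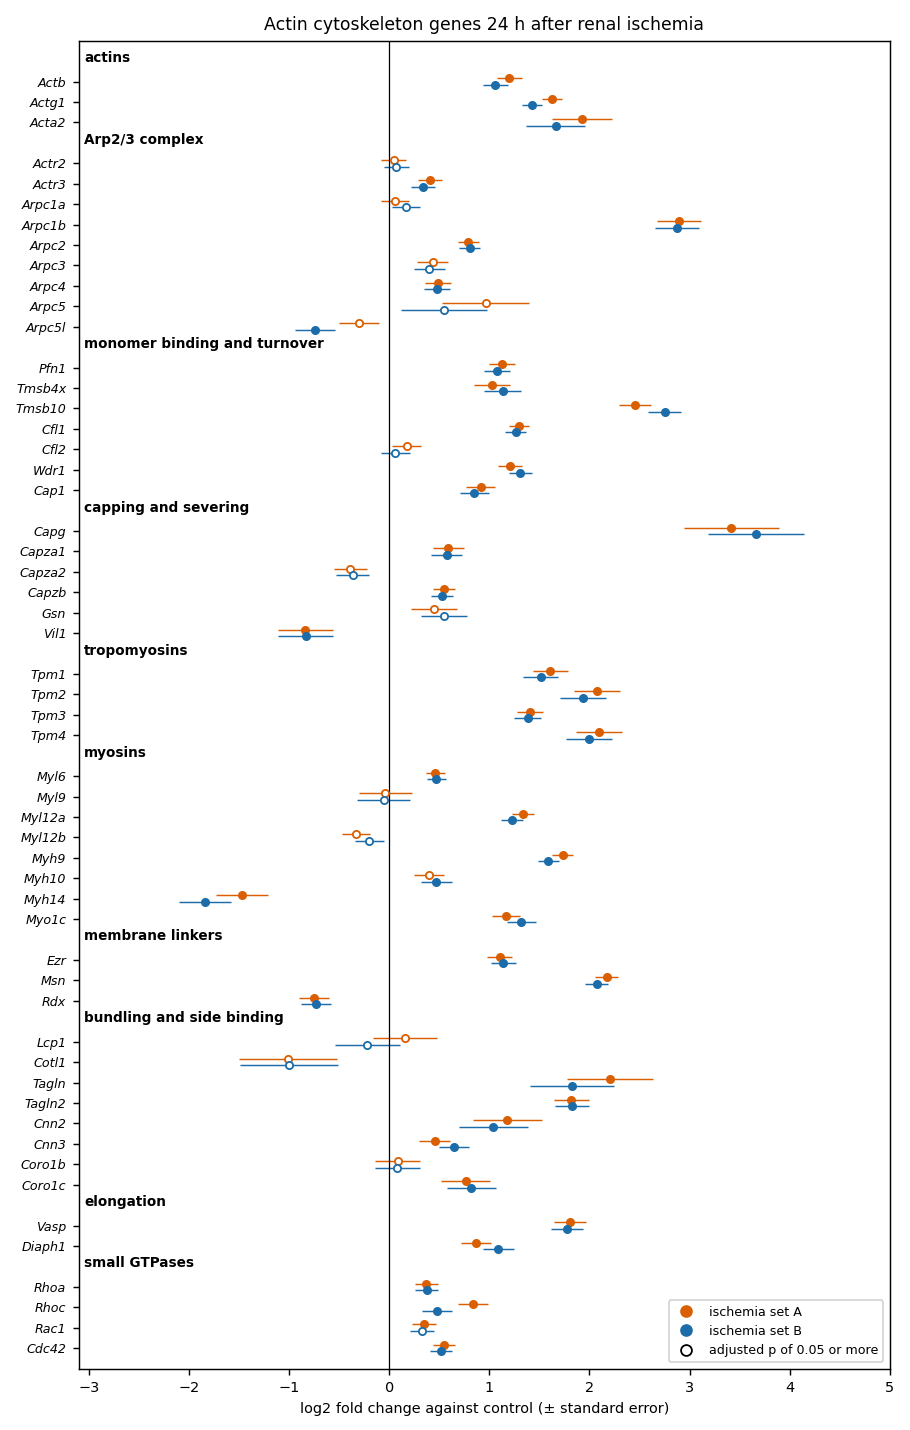
Log2 fold change against the 4 control kidneys (horizontal axis, bars are ± 1 standard error) for each of the 54 genes in the A set and set B, 4 kidneys each, grouped by role. Filled points passed an adjusted p of 0.05, and most lie to the right of 0, from Capg at 3.42 and 3.66 down to Myh14 at -1.47 and -1.84.

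The 3 actins all rose in both sets. Actb, the beta-actin of all non-muscle cells (chr5:142903115-142906754, minus strand, mm10), stood at 15293, 15094, 14152 and 13575 CPM in the control kidneys. It stood at 40146, 32802, 38263 and 24582 CPM in the A set and at 32685, 33088, 32364 and 24571 CPM in the B set. The lowest ischemic kidney thus lay above the highest control kidney, and replicate 4 was the lowest of each ischemic set. The fold change was 2.295 in the A set (log2 1.20, SE 0.13, adjusted p = 6.43e-07) and 2.08 in the B set (log2 1.06, SE 0.13, adjusted p = 3.17e-06). Ranked by counts among all genes, Actb held rank 2 or 3 in the control kidneys, rank 1 in 7 of the 8 ischemic kidneys and rank 2 in replicate 4 of set A.

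Actg1, the cytoplasmic gamma-actin (chr11:120345690-120348542, minus strand), rose more evenly. Its level was 794, 837, 782 and 705 CPM in the controls, 2446, 2371, 2510.4 and 2454 CPM in the A set and 2187, 2323, 2101 and 1901 CPM in the B set. The groups did not overlap, and the fold change was 3.08 (SE of log2 0.10, adjusted p = 6.63e-10) and 2.69 (SE of log2 0.10, adjusted p = 3.56e-09). Per kilobase of exon, Actb held 5423 CPM/kb and Actg1 293 CPM/kb in the controls, so beta-actin remained the more abundant of both cytoplasmic actins by this scale. After ischemia the levels were 12672 and 920 CPM/kb in the A set and 11451 and 801 CPM/kb in the B set. The log2 ratio of Actb to Actg1 within a kidney was 4.22 ± 0.05 in the controls, 3.77 ± 0.31 in the A set and 3.84 ± 0.11 in the B set (SD, n = 4), with no overlap between control and ischemic kidneys. Coding sequences of actin genes are nearly alike and have processed copies elsewhere in the genome, and how reads that match several places were counted is not given in the sources used here, so the split between these genes is uncertain.

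Acta2, the actin of smooth muscle and of myofibroblasts (chr19:34241090-34255590, minus strand), was the most variable of the 3. It measured 277, 159.6, 241 and 132 CPM in the controls, 1188, 413, 1056 and 468 CPM in the A set and 500.2, 786, 772 and 539.7 CPM in the B set. Replicates 1 and 3 of set A were far above replicates 2 and 4, and all 8 ischemic kidneys were above the controls. The fold change was 3.803 in the A set (log2 1.93, SE 0.30, adjusted p = 6.52e-05) and 3.17 in the B set (adjusted p = 0.000283). The summed level of 9 other smooth muscle and pericyte markers was 311 to 372 CPM in the controls, 581, 405, 569 and 318 CPM in the A set and 371, 433, 498 and 421 CPM in the B set, led by Des, and 1 of the 9, Smtn, was higher in each set while the other 8, Myh11 among them (adjusted p = 0.703 and 0.869), did not pass the test. The fibroblast markers, led by Col1a1, summed to 478 to 618 CPM in the controls, 2874, 1630, 2347 and 1038 CPM in the A set and 1574, 1342, 2682 and 1306 CPM in the B set. Of these 6 markers, 4 were tested and 3 were higher in both sets, with Pdgfra not past the threshold and Lum at 0 in every kidney. Replicates 1 and 3 of set A were the highest of the set in both sums as in Acta2, and the part of these cell types in the actin genes' rise was not tested.

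**Figure D3:**
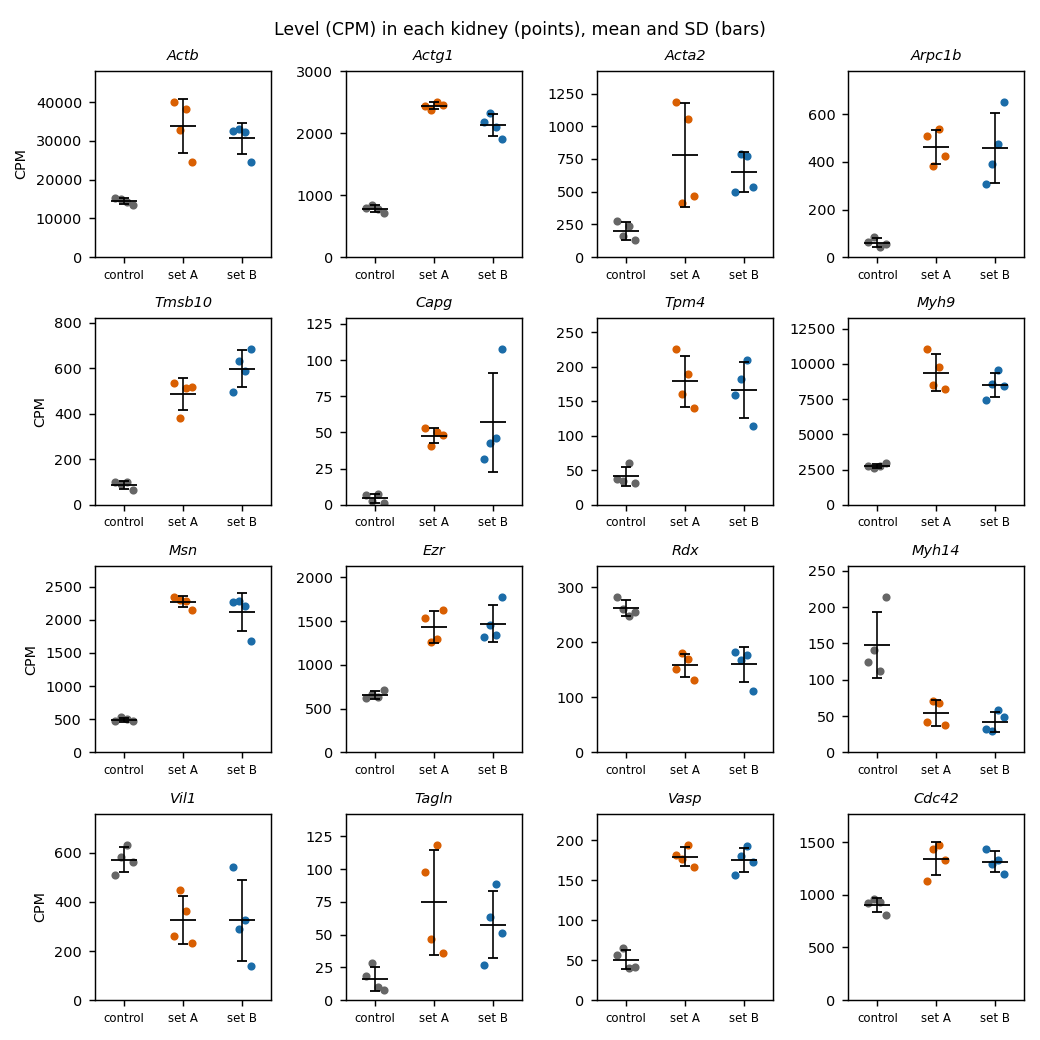
Level in CPM (vertical axes, each from 0) of 16 of the genes in every kidney, with 4 points for the controls, set A and set B, and the mean and SD as black bars. Rdx, Myh14 and Vil1 are lower after ischemia, Vil1 with 1 kidney of set B at the control level, and the other 13 genes are higher, Tagln with 1 kidney of set B just under the highest control kidney.

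The short DNA element called the CArG box, which is bound by serum response factor (SRF), a transcription factor of many cytoskeletal genes, was searched for on both strands in promoter windows of 250 bases before to 50 bases after each start (RefSeq, GRCm38.p6). Of the 54 genes, 47 had a window (none for Actb, Arpc5l, Coro1b, Cotl1, Diaph1, Rac1 and Tagln), and 6 of the 47 (12.8%) held a CArG box, which 1.81% of 27025 genes with such a window did. The 6 stretches are shown with the box in capitals because a larger share of these genes than of all genes held the element, although most of them lacked it, written 5′ to 3′ on the strand of the gene with up to 10 bases on either side. They lie at chr11:120348566-120348595 (minus strand), chr6:113377863-113377882 (plus), chr10:79988534-79988563 (plus), chr10:128493040-128493069 (minus), chr2:156775293-156775322 (plus) and chr1:74409301-74409330 (plus).
Actg1: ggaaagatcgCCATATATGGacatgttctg
Arpc4: CCTAATTTGGtgcccaacct
Cnn2: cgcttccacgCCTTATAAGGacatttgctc
Myl6: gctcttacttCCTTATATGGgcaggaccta
Myl9: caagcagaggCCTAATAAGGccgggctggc
Vil1: ccctatcttcCCTTATATGGtgaaggaagt

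The box stood 90, 250, 56, 50, 161 and 73 bases before the start of these 6 genes in the same order. They did not move together. Actg1, Arpc4, Cnn2 and Myl6 rose in both sets, Myl9 passed the threshold in neither set (log2 fold change -0.04 and -0.06), and Vil1 fell. A match describes letters in a window and not a bound site. The AP-1 element TGANTCA was in 3 of the 47 genes' windows (6.38%, against 8.97% of all genes), the TEAD element GGAATG in 8 (17.0%, against 16.6%) and the GC box GGGCGG in 40 (85.1%, against 38.2%), each counted on both strands. The windows of all genes include those of genes without a protein product.

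The 9 subunits of the Arp2/3 complex, which starts branches on existing filaments, did not move as a block. In set A, 4 rose (Actr3, Arpc1b, Arpc2 and Arpc4) and none fell, and in the B set the same 4 rose and Arpc5l fell. Arpc1b and Arpc1a encode alternative forms of 1 subunit and are neighbours on the plus strand (chr5:145114215-145130705 and chr5:145083830-145108761). Arpc1b measured 61.7, 85.8, 42.8 and 54.6 CPM in the controls, 507, 383, 538 and 423 CPM in the A set and 308, 394, 474 and 653 CPM in the B set. That is a rise of 7.44 times in the A set (log2 2.89, SE 0.22, adjusted p = 9.47e-09) and 7.32 times in the B set (adjusted p = 1.07e-08), the largest of the complex. Arpc1a stood at 132, 153, 113 and 124 CPM in the controls, 136, 137, 129 and 149.9 CPM in the A set and 132, 139.6, 145 and 182 CPM in the B set, with replicate 4 of set B above every other kidney (adjusted p = 0.871 and 0.482). Per kilobase of exon, Arpc1b went from 11.97 CPM/kb to 90.5 and 89.4 CPM/kb, and Arpc1a from 50.9 to 53.8 and 58.3 CPM/kb, so the more abundant form of this subunit differed between control and ischemic kidneys.

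The promoter window of Arpc1b (chr5:145114006-145114305, plus strand) is shown with the GC box GGGCGG or its reverse complement in capitals, because this gene had the largest rise of the complex and its window held 7 of these boxes.
Arpc1b: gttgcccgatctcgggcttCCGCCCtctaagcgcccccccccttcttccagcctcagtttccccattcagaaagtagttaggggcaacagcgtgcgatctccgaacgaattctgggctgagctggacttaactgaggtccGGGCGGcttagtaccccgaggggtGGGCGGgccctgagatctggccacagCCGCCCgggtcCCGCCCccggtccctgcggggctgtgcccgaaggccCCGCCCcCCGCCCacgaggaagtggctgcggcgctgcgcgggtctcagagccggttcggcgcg

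Arpc2, the most abundant of the 9 per kilobase of exon in control kidneys, measured 495, 605, 488 and 507 CPM in the controls, 870.2, 977, 924 and 911 CPM in the A set and 880.3, 895, 969 and 977 CPM in the B set, a rise of 1.73 and 1.75 times (adjusted p = 1.06e-05 and 8.69e-06). Arpc4 rose 1.397 and 1.39 times (adjusted p = 0.00964 and 0.0103), the call in the B set being lost without replicate 1 of set B (adjusted p = 0.0589). Actr3, the actin-related protein 3 of the complex, rose 1.32 and 1.27 times, with adjusted p = 0.0196 and 0.0484. The Actr3 call in the B set was lost without control replicate 1, 2, 3 or 4, set A replicate 3 or 4 or set B replicate 1, 2 or 3 (adjusted p between 0.0644 and 0.195), without the filter on low counts (0.0963) and with only the 2 groups compared (0.0605), and that in the A set was lost without control replicate 4 (0.0835) or set A replicate 2 (0.0781). Actr2, its partner, differed by 0.05 and 0.07 on the log2 scale (adjusted p = 0.883 and 0.794).

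The remaining subunits were less clear. Arpc5l was at 52.3, 56.4, 36.9 and 47.7 CPM in the controls, 40.2, 42.1, 41.1 and 35.8 CPM in the A set and 30.4, 31.1, 33.4 and 22.3 CPM in the B set. Set B lay below every control kidney and below every kidney of set A, and the gene passed the test in the B set against control (1.67 times lower, adjusted p = 0.0113) but not in the A set (adjusted p = 0.354) nor between the sets (adjusted p = 0.981). Arpc5, the other form of that subunit, was low, at 6.01 ± 2.35 CPM in the controls, 11.9 ± 1.57 CPM in the A set and 8.86 ± 2.79 CPM in the B set (adjusted p = 0.129 and 0.451). Arpc3 stood at 1.35 and 1.32 times the control level (adjusted p = 0.0539 and 0.0744) and passed the threshold in both sets by DESeq2 (0.0265 and 0.0373) and by total counts without TMM (0.0352 and 0.0496), and in the A set by RLE size factors (0.0430), limma-trend (0.0458), a minimum of 1 CPM in 4 kidneys (0.0364) and the 2 groups alone (0.0488).

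Both elongation genes rose. Vasp, which extends filaments at their growing ends, was at 55.9, 64.6, 40.7 and 40.97 CPM in the controls, 181, 176, 194 and 166 CPM in the A set and 156, 180.3, 192 and 173 CPM in the B set. No ischemic kidney came near the controls, and the fold change was 3.49 (log2 1.80, SE 0.16, adjusted p = 5.83e-08) and 3.42 (adjusted p = 7.96e-08). Diaph1, a formin that builds unbranched filaments under the control of RhoA, measured 104, 98.96, 112 and 108 CPM in the controls, 203, 164, 180.4 and 237 CPM in the A set and 187, 245, 207 and 277 CPM in the B set, a rise of 1.83 and 2.13 times (adjusted p = 0.000228 and 2.01e-05).

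Of the 7 genes of monomer binding and turnover, 6 rose in both sets and Cfl2 did not pass the test. Tmsb10, a thymosin that holds actin monomers (chr6:72957347-72958748, minus strand), changed most. It measured 98.5, 89.3, 99.7 and 63.1 CPM in the controls, 537, 383, 514 and 517 CPM in the A set and 494, 633, 587 and 683 CPM in the B set. The rise was 5.48 times in the A set (log2 2.45, SE 0.16, adjusted p = 1.37e-09) and 6.73 times in the B set (log2 2.75, SE 0.16, adjusted p = 3.95e-10). Its relative Tmsb4x rose 2.04 and 2.19 times (adjusted p = 0.000292 and 0.000111). The log2 ratio of Tmsb10 to Tmsb4x within a kidney, with no correction for gene length, was -0.90 in the controls, 0.56 in the A set and 0.76 in the B set, without overlap between control and ischemic kidneys.

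Cfl1, the non-muscle cofilin that severs old filaments, had the most counts of these 7 in the controls, at 846, 864, 979 and 858 CPM. It was at 2375, 2095, 2175 and 2202 CPM in the A set and 2275, 2243, 2146 and 1981 CPM in the B set, 2.45 times higher (adjusted p = 1.28e-08) and 2.397 times higher (adjusted p = 1.8e-08). Cfl2, the cofilin best known from muscle, stood at 162 ± 14.9 CPM, 186 ± 11.7 CPM and 171 ± 27.8 CPM in the 3 groups (adjusted p = 0.488 and 0.86). Among its partners, Wdr1, which speeds disassembly by cofilin, rose 2.31 and 2.48 times (adjusted p = 2.41e-07 and 8.88e-08). Cap1, which recharges monomers, rose 1.88 and 1.802 times (adjusted p = 7.46e-05 and 0.000159). Pfn1, the profilin that hands monomers to growing ends, rose 2.18 and 2.11 times (adjusted p = 1.8e-06 and 3.25e-06). Thymosins and cofilin 1 have many processed copies in the mouse genome, with the same uncertainty of counting as for the actins.

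The capping and severing genes went in both directions. Capg, a gelsolin relative that caps filament ends and is known from macrophages, had the largest rise of all 54 genes. Its level was 6.87, 2.58, 7.32 and 1.103 CPM in the controls, 52.8, 40.5, 50.1 and 48.1 CPM in the A set and 31.6, 42.9, 46.4 and 107 CPM in the B set. No ischemic kidney overlapped with a control kidney, and replicate 4 of set B was far above the others. The fold change was 10.7 (log2 3.42, SE 0.47, adjusted p = 1.84e-05) in the A set and 12.7 (log2 3.66, SE 0.48, adjusted p = 9.71e-06) in the B set. Of 15 leukocyte markers, 9 were tested, with a median log2 fold change of 0.38 in the A set and 0.17 in the B set, and 13 stayed under 10 CPM in every kidney. Their summed level, led by Csf1r, was 55.7 to 69.7 CPM in the controls, 21.6 to 42.7 CPM in the A set and 18.9 to 42.8 CPM in the B set. None was called higher and 2 were called lower in each set, Csf1r among them, and the macrophage marker Adgre1 did not pass the test (adjusted p = 0.704 and 0.750) while Tyrobp, S100a8 and Cd79a were at 0 in every kidney.

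The window around a start of Capg (chr6:72549397-72549696, plus strand) is shown because the gene rose most, and it held none of the 4 elements searched. The annotated gene spans chr6:72544391-72562983, so this window lies inside it, and the bases around its first annotated base were not searched.
Capg: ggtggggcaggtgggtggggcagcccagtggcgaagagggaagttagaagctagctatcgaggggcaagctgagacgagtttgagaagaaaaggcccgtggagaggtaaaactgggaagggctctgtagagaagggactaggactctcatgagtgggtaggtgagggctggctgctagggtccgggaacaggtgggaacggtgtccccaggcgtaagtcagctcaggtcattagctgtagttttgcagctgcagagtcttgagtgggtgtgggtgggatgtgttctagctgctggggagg

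Vil1, the villin of brush-border microvilli, fell. It measured 510.0, 584, 634 and 562 CPM in the controls, 259.7, 449, 363 and 234 CPM in the A set and 544, 290.2, 325 and 140.4 CPM in the B set. Set A lay wholly below the controls, and replicate 1 of set B lay within the control range. The level was 1.79 times lower in the A set (log2 -0.84, SE 0.28, adjusted p = 0.0335) and 1.79 times lower in the B set (adjusted p = 0.034). The call was lost in DESeq2 (adjusted p = 0.0738 and 0.0735), in the B set with only the 2 groups compared (0.0549), and on leaving out control replicate 2, 3 or 4, set A replicate 1, 3 or 4 (for set A) or set B replicate 2, 3 or 4 (for set B), with adjusted p between 0.0544 and 0.119, while the direction stayed the same. All 6 proximal tubule markers were lower in both sets.

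The barbed-end capping protein is a pair of an alpha and a beta subunit. Capza1 rose 1.504 and 1.49 times (adjusted p = 0.00811 and 0.00957, the latter 0.0513 without control replicate 4) and Capzb 1.46 and 1.44 times (adjusted p = 0.00103 and 0.00157). Capza2, the other alpha subunit, stood at 143 ± 11.9 CPM in the controls, 111 ± 19.9 CPM in the A set and 113 ± 19.05 CPM in the B set (adjusted p = 0.103 and 0.125). The log2 ratio of Capza1 to Capza2 was 0.40 in the controls, 1.38 in the A set and 1.36 in the B set, with no overlap between control and ischemic kidneys. Gsn, the severing protein gelsolin, stood at 123 ± 13.6 CPM, 169.7 ± 21.6 CPM and 184 ± 93.5 CPM, with replicate 4 of set B far above the other 3 kidneys of its set (adjusted p = 0.201 and 0.099). Without replicate 4 of set B, set A against control passed the threshold for Gsn (adjusted p = 0.0346), as it did with the 2 groups alone (0.0210), and without replicate 1 of set B, set B did (0.0196).

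All 4 tropomyosins, which cover filaments and set which partners may bind, rose in both sets. Tpm4 went from 36.6, 34.9, 60.8 and 31.4 CPM in the controls to 225, 160.2, 189 and 140.2 CPM in the A set and 159, 182, 209.8 and 114 CPM in the B set. The rise was 4.28 times (log2 2.10, SE 0.23, adjusted p = 1.03e-06) and 3.99 times (adjusted p = 1.98e-06). Tpm2 went from 94.4, 63.7, 64.2 and 54.9 CPM in the controls to 416, 216, 364 and 187 CPM in the A set and 199, 252, 333 and 291 CPM in the B set, 4.21 and 3.82 times (adjusted p = 1.33e-06 and 3.17e-06). Tpm1, the tropomyosin gene with the most counts, went from 574, 532, 543 and 399 CPM in the controls to 1819, 1242, 2001 and 1297 CPM in the A set and 1094, 1243, 1797 and 1815 CPM in the B set, 3.05 and 2.85 times (adjusted p = 1.02e-06 and 2.37e-06). No ischemic kidney overlapped with a control kidney for any of the 4. Replicates 1 and 3 of set A were the highest of that set for Tpm1, Tpm2 and Tpm4, as they were for Acta2, whereas Tpm3 lay within 444 to 488 CPM in the A set and rose 2.65 and 2.61 times (adjusted p = 1.48e-07 and 1.94e-07). Tropomyosin genes make muscle and non-muscle forms by splicing, which counts per gene do not tell apart.

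Among the myosins, the 3 heavy chains of non-muscle myosin II parted. Myh9, the heavy chain of non-muscle myosin IIA (chr15:77760587-77842175, minus strand), measured 2753, 2594, 2784 and 2954 CPM in the controls, 11026, 8465, 9799 and 8181 CPM in the A set and 7446, 8564, 9529 and 8417 CPM in the B set. All 8 ischemic kidneys were above the controls, 3.32 times in the A set (log2 1.73, SE 0.11, adjusted p = 4.85e-10) and 3.01 times in the B set (log2 1.59, SE 0.10, adjusted p = 1.47e-09). By counts it ranked between 27 and 32 among all genes in the control kidneys and between 5 and 8 in the ischemic kidneys.

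Myh14, the heavy chain of non-muscle myosin IIC, went the other way. It measured 124, 140.4, 113 and 214 CPM in the controls, 41.8, 70.8, 67.5 and 37.1 CPM in the A set and 32.5, 29.2, 58.2 and 48.5 CPM in the B set. All 8 ischemic kidneys were below the controls, 2.78 times in the A set (log2 -1.47, SE 0.26, adjusted p = 0.000243) and 3.59 times in the B set (log2 -1.84, SE 0.26, adjusted p = 2.44e-05). Myh10, the heavy chain of non-muscle myosin IIB, was higher in the B set (1.38 times, adjusted p = 0.0308) and at 1.32 times the control level in the A set (adjusted p = 0.0688). The call for Myh10 in the B set was lost without set B replicate 4 (log2 0.32, adjusted p = 0.115) or without control replicate 2, 3 or 4 (0.0833, 0.0935 and 0.0633), and it passed in the A set by DESeq2 (0.0422), by a minimum of 1 CPM in 4 kidneys (0.0477) and with the 2 groups alone (0.0352). The log2 ratio of Myh9 to Myh14 within a kidney was 4.27 in the controls, 7.48 in the A set and 7.71 in the B set, and that of Myh9 to Myh10 was 3.49, 4.83 and 4.62.

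The light chains differed too. Myl6, the essential light chain at 1631 to 1974 CPM in the controls, rose 1.38 and 1.38 times (adjusted p = 0.0012 and 0.00108). Of the regulatory light chains, Myl12a measured 326, 346, 318 and 299 CPM in the controls, 786, 786, 953 and 789 CPM in the A set and 704, 796, 726 and 836 CPM in the B set, a rise of 2.53 and 2.34 times (adjusted p = 2.51e-08 and 8.35e-08). Myl12b measured 307, 331, 288 and 297 CPM in the controls, 205, 285, 279.7 and 218 CPM in the A set and 224, 235, 331 and 296 CPM in the B set (adjusted p = 0.105 and 0.387). The log2 ratio of Myl12a to Myl12b thus went from 0.08 to 1.76 and 1.51. Both genes lie on the minus strand of chromosome 17 with overlapping annotated spans (chr17:70993656-71002878 and chr17:70974119-71002208) and nearly alike sequence, so the split of reads between them is uncertain. Myl9, the regulatory light chain best known from smooth muscle, stood at 95.9 ± 24.9 CPM, 94.8 ± 40.5 CPM and 93.4 ± 24.3 CPM (SD, n = 4), unlike Acta2 (adjusted p = 0.961 and 0.933). Myo1c, a single-headed myosin that links membranes to actin, rose 2.24 and 2.498 times (adjusted p = 3.57e-06 and 8.52e-07).

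The 3 membrane linkers are close relatives and went in opposite directions. Msn, moesin, was at 469, 534, 504 and 472 CPM in the controls, 2343, 2302, 2288 and 2148 CPM in the A set and 2275, 2279, 2203 and 1685 CPM in the B set, 4.51 times higher (log2 2.17, SE 0.12, adjusted p = 1.21e-10) and 4.201 times higher (log2 2.07, SE 0.12, adjusted p = 1.71e-10). Ezr, ezrin, the linker of the tubular brush border, was at 618, 666, 630.2 and 708 CPM in the controls, 1535, 1257, 1298 and 1630.0 CPM in the A set and 1316, 1455, 1338 and 1775 CPM in the B set, 2.15 and 2.204 times higher (adjusted p = 1.14e-06 and 8.15e-07). Rdx, radixin, was at 282, 259.9, 249 and 256 CPM in the controls, 152, 180.4, 169 and 132 CPM in the A set and 182, 169, 177 and 112 CPM in the B set, 1.68 times lower (log2 -0.75, SE 0.15, adjusted p = 0.00102) and 1.66 times lower (log2 -0.73, SE 0.15, adjusted p = 0.00133). None of the 3 had an ischemic kidney within its control range. The log2 ratio of Msn to Ezr within a kidney went from -0.41 in the controls to 0.67 in the A set and 0.52 in the B set, and that of Msn to Rdx from 0.92 to 3.85 and 3.74.

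Of the 8 bundling and side-binding genes, 5 rose in both sets, Tagln, Tagln2, Cnn2, Cnn3 and Coro1c. Tagln, the transgelin of smooth muscle, measured 18.1, 27.97, 9.74 and 7.93 CPM in the controls, 97.7, 46.5, 119 and 35.6 CPM in the A set and 27.1, 63.3, 88.6 and 51.2 CPM in the B set. Replicates 1 and 3 of set A were again the highest of their set, and replicate 1 of set B lay just below the highest control kidney. The fold change was 4.604 (log2 2.20, SE 0.43, adjusted p = 0.000646) and 3.55 (log2 1.83, SE 0.42, adjusted p = 0.00314). Tagln2, its relative of non-muscle cells, measured 51.02, 40.3, 53.4 and 37.6 CPM in the controls, 172, 182, 174 and 127 CPM in the A set and 168, 169, 190.1 and 129 CPM in the B set, 3.53 and 3.55 times higher (adjusted p = 1.38e-07 and 1.36e-07). It did not overlap with the controls in any kidney.

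The calponins and coronins among them were closer to the threshold. Cnn3, a calponin of non-muscle cells and the bundling gene with the most counts in the controls, measured 92.1, 101, 106 and 138 CPM in the controls, 150.0, 136, 147 and 175 CPM in the A set and 187, 168, 183 and 157 CPM in the B set. It rose 1.37 and 1.56 times (adjusted p = 0.0365 and 0.0036), and in the A set the call was lost without control replicate 1, 2 or 3, set A replicate 3 or 4 or set B replicate 1, 2 or 3 (adjusted p between 0.0514 and 0.141). Cnn2 rose 2.27 and 2.05 times (adjusted p = 0.0171 and 0.035), with ischemic kidneys inside the control range in both sets, and its call in the A set was lost without control replicate 3 or 4 or set A replicate 1 or 3 (0.0562 to 0.0690) and that in the B set without control replicate 1, 3 or 4 or set B replicate 2 or 3 (0.0714 to 0.162). Coro1c, a coronin that takes branches apart, rose 1.697 and 1.77 times (adjusted p = 0.0287 and 0.0187). It lost the call in the A set without control replicate 1, 3 or 4 or set A replicate 1, 3 or 4 (0.0517 to 0.101) and in the B set without control replicate 1 (0.0739) or set B replicate 1 (0.133). Coro1b stood at 38.8 ± 10.5 CPM, 41.98 ± 5.17 CPM and 41.9 ± 9.01 CPM (adjusted p = 0.88 and 0.883). Lcp1, the plastin of leukocytes, stood at 50.4 ± 7.58 CPM, 57.3 ± 26.3 CPM and 43.9 ± 17.8 CPM (adjusted p = 0.837 and 0.739), and Cotl1, also abundant in leukocytes, was at 10.2 ± 3.11 CPM, 5.15 ± 1.31 CPM and 5.16 ± 1.57 CPM (adjusted p = 0.163 and 0.162).

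The small GTPases, switches that direct actin assembly, had small changes. Cdc42, which promotes thin protrusions and had the most counts of the 4, measured 919.8, 966, 931 and 812 CPM in the controls, 1131, 1440.4, 1478 and 1332 CPM in the A set and 1439, 1298, 1331 and 1203 CPM in the B set, 1.46 and 1.43 times higher (adjusted p = 0.00097 and 0.00155). Rhoc measured 84.1, 71.9, 64.2 and 60.9 CPM in the controls, 119.9, 135, 140.5 and 115 CPM in the A set and 107, 88.4, 113 and 87.7 CPM in the B set, 1.79 times higher (adjusted p = 0.000317) and 1.39 times higher (adjusted p = 0.0277). All kidneys of set A were above all kidneys of set B for Rhoc, but the gene did not pass the test between the sets (adjusted p = 0.941). Its call in the B set against control was lost without control replicate 2, 3 or 4 or set B replicate 1 or 3 (0.0627 to 0.109). Rhoa, the switch for contraction, rose 1.29 and 1.29 times (adjusted p = 0.0236 and 0.0228), a call lost without the filter on low counts (0.0529 and 0.0509), without control replicate 1, 2 or 4, and without set A replicate 4 (for set A) or set B replicate 1 or 2 (for set B), with adjusted p between 0.0572 and 0.120. Rac1, which drives branched networks, was 1.27 times higher in the A set (adjusted p = 0.0411) and at 1.25 times the control level in the B set (adjusted p = 0.052). The Rac1 call in the A set was lost without control replicate 1, 2 or 4, set A replicate 2, 3 or 4 or set B replicate 1, 2 or 3 (0.0530 to 0.115), without the filter on low counts (0.0883) and with the replicate number as a block (0.0631). In set B, Rac1 passed the threshold by DESeq2 (adjusted p = 0.00829), limma-trend (0.0448), RLE size factors (0.0322), total counts without TMM (0.0296) and a minimum of 1 CPM in 4 kidneys (0.0321), and without set A replicate 1 (0.0402) or set B replicate 3 (0.0388).

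Pairs of related genes within the list were set against each other in each kidney, which leaves library size out of the comparison. The 18 pairs were chosen after their values were seen. Their ratios are therefore given as a description, with no test. The pairs whose ratio did not overlap between the 4 control and the 8 ischemic kidneys were those in which the gain lay with Actg1 against Actb, Arpc1b against Arpc1a, Arpc5 against Arpc5l, Cfl1 against Cfl2, Tmsb10 against Tmsb4x, Capza1 against Capza2, Myl12a against Myl12b, Myh9 against Myh10 and Myh14, and Msn against Ezr and Rdx. The largest shifts were those of Myh9 against Myh14 (3.20 and 3.43 on the log2 scale), Msn against Rdx (2.93 and 2.82) and Arpc1b against Arpc1a (2.86 and 2.70). The ratios of Tpm1 to Tpm3, Tpm2 to Tpm4, Tagln to Tagln2, Cnn2 to Cnn3 and Rhoc to Rhoa overlapped between control and ischemic kidneys in both sets, and those of Coro1c to Coro1b and Actr3 to Actr2 overlapped in the B set.

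**Figure D4:**
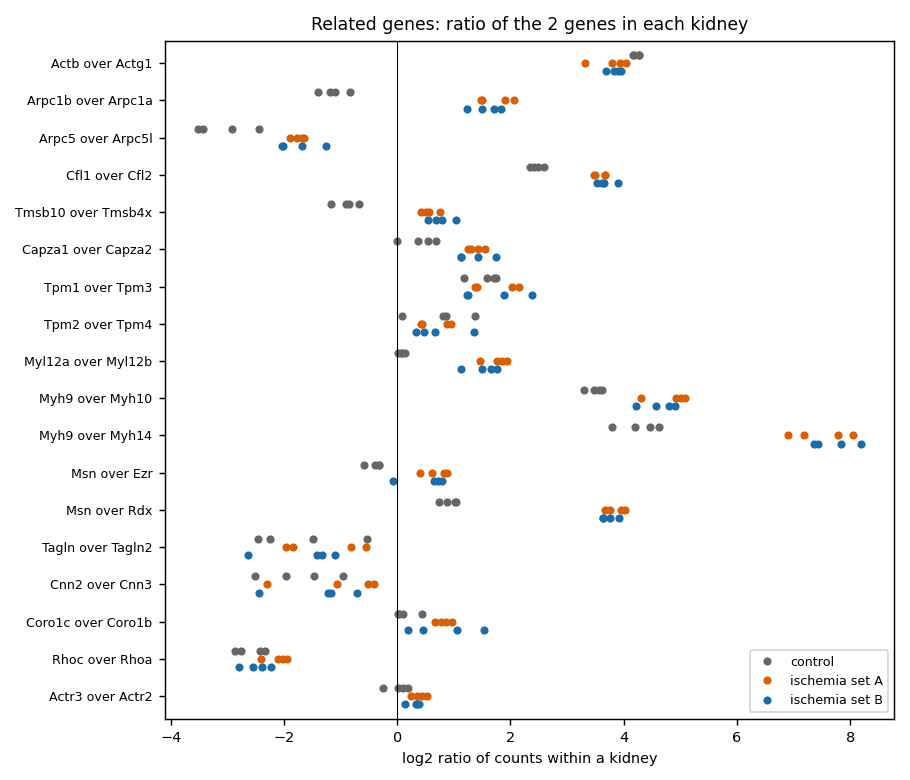
Log2 ratio of the counts of 2 related genes within each kidney (horizontal axis), 1 row per pair, with 4 points each for controls, set A and set B. The pairs were chosen after their values were seen, and the mean ratio of Myh9 over Myh14 lies at 4.27 in the controls and at 7.48 and 7.71 in the A set and set B.

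Between the ischemic sets, no gene of the 54 passed the test in edgeR, DESeq2 or limma-trend, and 1 of all genes tested did in edgeR (0.00857%). That gene, named after its values were seen, was Slc5a12, a lactate transporter of the proximal tubule, at 117 to 157 CPM in the controls, 9.47 to 17.6 CPM in the A set and 27.9 to 74.6 CPM in the B set (log2 difference of set B from set A 1.85, adjusted p = 0.0328). At an unadjusted p under 0.05 there were 2 of the 54, Arpc5l (log2 difference of set B from set A -0.44, 95% interval -0.86 to -0.01) and Rhoc (-0.37, -0.68 to -0.05), and 587 of all genes. The median log2 difference of the 54 genes was -0.02. The interval was -0.40 to 0.12 for Actb, -0.40 to 0.01 for Actg1, -0.36 to 0.07 for Myh9, -0.33 to 0.13 for Msn and -0.65 to 1.14 for Capg, so differences of any size within these bounds remain possible. Each of the 8 ischemic kidneys had a positive median difference from the control mean over the 54 genes, between 0.74 and 0.84 on the log2 scale in the A set and between 0.73 and 0.79 in the B set.

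Beyond the 54 genes, 6 lists of other genes of the pathway were read from the same test, which called 10.5% of all genes tested higher and 11.7% lower in the A set, and 10.9% and 11.9% in the B set. These lists too were chosen with earlier results of these data known, so their counts describe the lists and are no test of them. Of 19 cross-linkers and membrane anchors of filaments, 13 rose in the A set, the same 13 rose in the B set and none fell (median log2 fold changes 1.09 and 0.69). Flnc, the filamin of muscle, went from 6.26 ± 1.999 CPM (4.57 to 9.13) to 678 ± 162 CPM (449 to 816) in the A set and 528 ± 247 CPM (169.9 to 730.3) in the B set (SD and range, n = 4), 108 and 84.6 times higher (adjusted p = 2.58e-10 and 5.31e-10). The summed level of the skeletal muscle markers stayed at or under 2.94 CPM in every kidney, with Myh4 and Ckm at 0 throughout. Actn1, a non-muscle alpha-actinin, went from 268 ± 23.9 CPM to 2059 ± 237 and 1833 ± 308 CPM, 7.55 and 6.73 times higher (adjusted p = 5.92e-11 and 5.64e-11). Flna, the filamin of non-muscle cells, rose 5.32 and 4.96 times (adjusted p = 9.75e-09 and 1.73e-08). Among the others of the 13 were Actn4, Sptan1, Dbn1, Cald1, Synpo, Vcl, Zyx, Vim and Plec.

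Transcripts of a list of microvillus genes were lower or did not pass, while Ezr, the brush-border linker outside this list, rose in both sets. Of 12 genes of that list, 11 were tested, none rose in either set and 4 fell in both, Pdzk1, Slc9a3r1, Eps8 and Ush1c, with a median log2 fold change of -0.72 in the A set and -0.92 in the B set. Pdzk1, a scaffold of brush-border transporters, was at 117 to 159 CPM in the controls, 10.1 to 20.8 CPM in the A set and 18.1 to 42.1 CPM in the B set, 9.08 and 4.85 times lower (adjusted p = 7.28e-08 and 3.42e-06). Slc9a3r1, the scaffold that ezrin binds, was 1.85 and 1.93 times lower (adjusted p = 0.00253 and 0.00146), and Eps8, which bundles and caps microvillar filaments, was 1.81 times lower in the A set (adjusted p = 0.0116) and at 23.6 to 47.7 CPM, below the 56.4 to 76.4 CPM of the controls, in the B set (adjusted p = 0.00375). These falls, like that of Vil1, stand beside the lower proximal tubule markers. The summed level of 7 markers of other nephron segments, led by Slc12a1, was lower too, although the median of their log2 fold changes was 0.14 in the A set and -0.14 in the B set. It was at 2421 to 2831 CPM in the controls, 1072 to 1392 CPM in the A set and 973 to 1909 CPM in the B set, with 2 of the 7 past the threshold in the A set and 1 in the B set. The part of these cells in the falls was not tested.

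Of the other 4 lists, 3 held calls in both directions and that of small GTPase signalling and SRF held rises alone. Of 26 other nucleators and formins, 7 rose and 1 fell in the A set, and 6 rose and 3 fell in the B set, the falls being under the share among all genes tested. Inf2, a formin, rose 4.896 and 3.77 times (adjusted p = 2.64e-06 and 2.09e-05) and Fmnl2, another formin, 2.11 and 1.71 times (adjusted p = 0.00037 and 0.00627), whereas Cyfip2, a subunit of the WAVE complex that activates Arp2/3, fell to 0.419 and 0.633 times the control level (adjusted p = 0.000256 and 0.0349). Cyfip2 lay at 641 to 817 CPM in the controls, 268 to 372 CPM in the A set and 315 to 839 CPM in the B set, where the highest kidney was above every control kidney. Of 24 other filament turnover factors, 20 were tested, with 6 higher and 2 lower in the A set and 5 higher and 1 lower in the B set, the falls again under the share among all genes tested. Cttn, cortactin, which holds branches in place, rose 2.16 and 2.17 times (adjusted p = 2.87e-07 and 2.81e-07). Add3, an adducin of the spectrin skeleton, fell 3.91 and 2.95 times (adjusted p = 3.92e-05 and 0.000403), and Coro2b, a coronin, was 2.19 times lower in the A set (adjusted p = 0.0428) with adjusted p = 0.74 in the B set.

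Of 25 genes of small GTPase signalling and SRF, 9 rose in the A set and 7 in the B set, and none fell. Iqgap1, a scaffold that binds Cdc42 and Rac1, rose 2.91 and 3.23 times (adjusted p = 3.06e-07 and 1.02e-07). Limk1, the kinase that inactivates cofilin, rose 3.05 times in the A set (adjusted p = 0.0155) and had adjusted p = 0.139 in the B set. Rnd1, a small GTPase that opposes RhoA, was at 0 to 1.01 CPM in the controls, 1.43 to 9.04 CPM in the A set and 2.41 to 7.26 CPM in the B set, with adjusted p = 0.0493 and 0.0504. Srf itself rose 1.51 and 1.55 times (adjusted p = 0.00958 and 0.00625) and Mkl2, a cofactor of SRF that binds actin monomers, 1.84 and 1.93 times (adjusted p = 0.0382 and 0.0253). Of 13 other myosins, 12 were tested, with 4 higher and 3 lower in the A set and 4 higher and 2 lower in the B set. Myo5a, a carrier of vesicles along actin, fell 3.53 and 3.66 times (adjusted p = 4.16e-07 and 3.25e-07), Myo6, a myosin of the microvillus base, fell 2.12 and 1.82 times (adjusted p = 5.58e-06 and 7.75e-05), and Myo9b, which carries a domain that inactivates RhoA, rose 2.53 and 2.25 times (adjusted p = 0.000285 and 0.00106).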

How the data were processed

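The authors prepared stranded mRNA libraries of 12 kidneys, sequenced them as single reads, mapped them to mm10 with STAR, counted reads per gene with HTSeq and deposited raw counts without normalization. The versions, the annotation, the strand setting and the handling of reads with several matches are not given in the sources used here. No column of the table lacked a sample (0 columns). Total counts per kidney were between 15367342 and 44793350.

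Counts were analysed in edgeR 4.0.16 (R 4.3.3) with its default filter (minimum count 10, minimum total 15), which left 11664 genes, TMM scaling (factors 0.968 to 1.03), a coefficient for each of the 3 groups and quasi-likelihood F-tests (two-sided) with Benjamini-Hochberg adjustment over all genes tested. CPM used the total counts without TMM factors. Log2 ratios of 2 genes used counts plus 0.5. The procedure was tested on simulated counts. Positions and lengths came from the GENCODE annotation of mm10, promoter windows from RefSeq. No pair of kidneys of a group agreed within sampling noise (chi-square per degree of freedom at least 48.9).

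The genes, their roles, the pathway lists and the marker lists were chosen with earlier results of these data known. Named with values for each kidney were the 3 actins and, per role, the gene with the highest mean level and the 2 with the largest change past the threshold in set A or set B, and Arpc1a, Rdx, Myl12a, Myl12b and Arpc5l were added after their values were seen. Of each pathway list, the 3 genes with the largest change past the threshold in set A were named, and Srf, Mkl2, Ush1c and the further cross-linkers past the threshold were added after their values were seen. The alternatives were DESeq2 1.42.0, RLE size factors, no TMM, no filter, limma-trend (limma 3.58.1), a minimum of 1 CPM in 4 or more kidneys, the replicate number as a block, fits of the 2 groups alone and leaving out each kidney. Tables, ratios and figures were made in Python 3.11.15 with pandas 2.3.3, matplotlib 3.10.9, SciPy 1.17.1 and NumPy 2.4.6.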

Additional observations from a re-analysis of the deposited data

Results flagged for a closer look

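In 11 of 165 groups of 4 kidneys examined, 1 kidney stood apart from the other 3, with a gap to its nearest neighbour of more than the 95% critical value of Dixon's test, where about 8.25 such groups are found by chance. Replicate 4 of set B was apart for 3 genes, being the lowest for Actb (24571 CPM, the others 32364 to 33088) and Msn (1685 CPM, the others 2203 to 2279) and the highest for Myh10 (455 CPM, the others 307 to 318). Control replicate 4 was the lowest for Actr3 (255 CPM, the others 318 to 327), Capza1 (147 CPM, the others 199 to 209) and Myl6 (1631 CPM, the others 1938 to 1974). Control replicate 2 was the highest for Arpc2 (605 CPM, the others 488 to 507) and control replicate 3 for Cfl1 (979 CPM, the others 846 to 864). In set A, replicate 2 was the lowest for Tmsb10 (383 CPM, the others 514 to 537) and replicate 3 the highest for Myl12a (953 CPM, the others 786 to 789). In set B, replicate 3 was the lowest for Cap1 (183 CPM, the others 249.5 to 258).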

How the results depend on the processing

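In 30 of the 54 genes the call and its direction held in both sets under every alternative and without any kidney, among them Actb, Actg1, Acta2, Arpc1b, Tmsb10, Capg, all 4 tropomyosins, Myh9, Myh14, Msn, Ezr, Rdx, Tagln, Vasp and Cdc42. The same count was not made over all genes tested. Leaving out each kidney gave 32 to 40 genes higher and 2 to 4 lower in the A set, 31 to 38 higher and 3 to 4 lower in the B set, and 0 in either direction between the sets, with mean shares of total counts of 3.09 to 3.17% in the controls, 6.76 to 7.44% in the A set and 6.46 to 6.79% in the B set. The share fell by construction to 1.52%, 3.14% and 3.05% (controls, set A, set B) with the 10 genes with the most counts, among them Actb and Myh9, left out of both terms, and to 1.58%, 3.41% and 3.29% without Actb and Actg1. The direction reversed only on leaving out 1 kidney, and only for genes past the threshold in neither set, with ranges over the kidneys left out, on the log2 scale, of -0.0395 to 0.129 (A set) and -0.0072 to 0.136 (B set) for Actr2, -0.0138 to 0.149 (A) for Arpc1a, -0.0434 to 0.171 (B) for Cfl2, -0.249 to 0.162 (A) and -0.241 to 0.0719 (B) for Myl9, -0.0922 to 0.395 (A) and -0.431 to 0.0051 (B) for Lcp1, and -0.0334 to 0.274 (A) and -0.0743 to 0.255 (B) for Coro1b. Kidneys with the same replicate number did not deviate together over all genes tested (r between -0.0554 and 0.0452 over 12 pairs). For kidneys with different numbers, r lay between -0.0619 and 0.0763. These values cannot decide whether the numbers follow animals or processing, which was not stated. With the replicate number as a block, 36 genes were higher and 3 lower in the A set and 37 higher and 4 lower in the B set. The 1 lost call was Rac1 (log2 0.34, adjusted p = 0.0631). With 4 kidneys a group, genes with changes near the threshold (Vil1, Actr3, Rhoa, Rac1, Rhoc, Cnn2, Cnn3, Coro1c, Myh10) lost their call in at least 1 set under several settings while the direction stayed, and the cause was not tested.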
